A study of Mus musculus with 2 samples.

Results

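Toll-like receptors are the receptors through which innate immune cells sense bacterial and viral molecules, and the genes described here are 7 of these receptors (Tlr1, Tlr2, Tlr4, Tlr6, Tlr7, Tlr9 and Tlr13), their accessory proteins Cd14 and Ly96, and their shared adaptor Myd88. The members were every array probe, control probes left out, that the array files name for 1 of these 10 genes. They were 10 of 36413 gene names on the array and were read by 11 of its 55681 probes, with 2 for Tlr7 and 1 for each other gene. The measurements compared fetal liver erythroid progenitors that over-expressed ESlncRNA, a long non-coding RNA of the red cell lineage also called lincRNA-EPS, with the same kind of cells that received the vector.

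Both groups were lineage-negative (Lin-) cells taken from the livers of C57BL/6 mouse embryos at E14.5. Cells of 1 group were transduced to over-express ESlncRNA, those of the other received the vector, and GFP-positive cells were sorted from each. The vector cells went through the same transduction and sort. Total RNA of both groups was hybridised to a two-colour oligonucleotide array, with the ESlncRNA RNA in Cy5 and the vector RNA in Cy3, on 2 arrays called replicates 1 and 2. The labels do not name the vector or its promoter, the level of ESlncRNA itself was not analysed here, and the dyes were not swapped, so a bias of a probe towards 1 dye would shift its ratio the same way on both arrays.

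Members of this receptor family have known divisions of labour. Tlr2 pairs with Tlr1 or Tlr6 at the cell surface to bind bacterial lipoproteins, and Tlr4 binds lipopolysaccharide there together with Ly96 after Cd14 hands it over. Tlr7, Tlr9 and Tlr13 sit in endosomes and sense single-stranded RNA, DNA rich in CpG and bacterial ribosomal RNA. All of them signal through Myd88, and in the blood system they are best known from macrophages, neutrophils and dendritic cells, while blood progenitors also carry some of them.

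The values of a member depend on 1 short piece of its transcript, so the probes that the results turn on are shown here. Each is 60 bases long, and its first 30 bases are given from the 5′ end, as the array files hold them. They belong to the members that were lowest among those above background in both channels (Tlr2 and Tlr13), to the gene whose probes differed (Tlr7), to the 1 gene that rose (Tlr9) and to the shared adaptor (Myd88). Capitals mark a run of alternating T and C at the start of 1 Tlr7 probe, which is described with that gene.
Tlr2: ccttggatgaaggccagcaggaagtgtttt
Tlr13: tgagtaacccttcacctatgttcttgtaag
Tlr7 at transcript position 3686: TCTCTCTCTCTgatactgaactgtaccaga
Tlr7 at transcript position 3403: cataaatgaaggtctgaatttttcctaaca
Tlr9: ctggttcccgagttgctctgcctgccttgc
Myd88: ggtttgcatcttcttattcctttcacgttc
The longest run of bases that any 2 of the 10 member probes compared had in common was 8 bases, over 45 pairs and with the Cd14 probe left out of that comparison.

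Of the 10 genes, 8 were lower in ESlncRNA cells than in vector cells, Tlr9 was higher and Myd88 did not pass the test. The test was limma's moderated test of the mean log2 ratio against 0, with Benjamini-Hochberg adjustment over all 26790 probes kept and a threshold of 0.05. A gene was represented by its brighter probe where it had 2. By the same test 35.8% of all probes kept were lower and 25.9% were higher. Asking for both channels well above background on both arrays left 5 genes lower, with Tlr9 higher and Myd88 not passing. Tlr1, Tlr4 and Tlr6 were then not measured, and over all probes 7571 were lower and 6647 higher. The genes Tlr2, Tlr13, Cd14 and Tlr4 were at least 2-fold lower on both arrays, as were 7.11% of all probes kept. Of these genes, Tlr4 passed the filter through the vector channel only. The median log2 ratio of the 10 genes was -0.79, against -0.03 for all probes kept, and it was -0.78 on replicate 1 alone and -0.82 on replicate 2 alone. That median moved with the processing, to -1.66 with the processed signals of the scanner software, -1.31 with an offset of 0 and -1.17 with the probes of a gene averaged.

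All 11 probes passed the filter, which required that 1 of the channels or both stood well above background on each array. The probes of Tlr4 and Tlr6 and the dimmer probe of Tlr7 passed through the vector channel only, so that for them passing the filter itself favoured a low ratio. The Tlr1 probe did so on replicate 2. The p-values of these probes are open to the same favour, so only that of Tlr1 is given. For these probes the ESlncRNA level is only bounded, and except for Tlr1 the fold is written as an approximate lower limit. Its denominator was, on each array, the dim signal itself or the faintest signal well above background, whichever was larger. That faintest signal is not a detection limit. On replicate 2 it had a log2 level of 6.25, while the Tlr1 probe had 6.37 and was not well above background. Since the labels do not tell whether the replicates were separate cultures or animals, the p-values reflect only how far 2 arrays differed, and that spread may be technical. An exact sign test on 2 arrays cannot give a two-sided p below 0.5.

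Signals below are normalised signals on a linear scale, after background correction with an added offset of 50, loess within the array and scaling between arrays. They are given for replicate 1 and then replicate 2, and they compare the channels of 1 probe, not 1 probe with another. Since RNA was taken from cells in bulk, fewer cells of a type and less RNA per cell cannot be told apart.

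Among the lipoprotein receptors, Tlr2, the shared partner, was far lower in ESlncRNA cells, and its partners Tlr6 and Tlr1 were lower by smaller factors. The Tlr2 probe (chromosome 3, 83640344 to 83640403, minus strand, mm9) had 107 and 110 in the ESlncRNA channel, against 936 and 923 in the vector channel. The channels were far apart on both arrays and the arrays were close to each other. The log2 ratios were -3.13 and -3.07, a mean of -3.10 ± 0.040 (SD, n = 2 arrays), or 8.57-fold lower (limma, adjusted p = 7.85e-08). The array carries this probe at 10 spots, whose log2 ratios ran from -3.41 to -2.94 on replicate 1 and from -3.22 to -2.90 on replicate 2. No spot of Tlr2 came near 0, and the SD between spots was 0.135 and 0.095. Ranked from the most lowered probe upwards, Tlr2 stood at percentile 0.758 of all probes kept.

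Tlr6, which pairs with Tlr2 for diacylated lipopeptides, was measured by a dim probe (chromosome 5, 65344365 to 65344424, minus strand, mm9). It had 71.6 and 69.0 in the ESlncRNA channel, where it was not well above background on either array, against 125 and 119 in the vector channel. Its log2 ratios of -0.80 and -0.79 averaged -0.80 ± 0.012 (SD, n = 2 arrays), so that it was at least 1.62-fold lower. Tlr1, which pairs with Tlr2 for triacylated lipopeptides, lies near Tlr6 on the same chromosome (chromosome 5, 65316115 to 65316174, minus strand, mm9). Its probe had 86.6 and 82.6 in the ESlncRNA channel, well above background on replicate 1 only, against 113 and 104 in the vector channel. The lowest vector value still exceeded the highest ESlncRNA value. With log2 ratios of -0.39 and -0.33, Tlr1 was 1.28-fold lower (-0.36 ± 0.042, SD, n = 2 arrays, limma adjusted p = 0.000959). On replicate 2 its ESlncRNA level is only bounded, so this size is uncertain. The size of both changes moved with the background correction: Tlr6 was at -2.87 and Tlr1 at -0.94 with the processed signals of the scanner software, and at -1.73 and -0.74 with an offset of 0.

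All 3 members of the lipopolysaccharide receptor were lower in ESlncRNA cells. Tlr4, the signalling chain, was read at 2 spots (chromosome 4, 66503470 to 66503529, plus strand, mm9). It had 65.1 and 63.6 in the ESlncRNA channel, where no spot was well above background, against 193 and 198 in the vector channel. The log2 ratios of Tlr4 were -1.57 and -1.64 (-1.60 ± 0.050, SD, n = 2 arrays), and it was at least 2.59-fold lower. How far below that bound it lay depended on the background correction, with a log2 ratio of -4.75 with the processed signals, -3.02 with an offset of 0 and -2.19 in the authors' deposited table.

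Cd14, which presents lipopolysaccharide to the receptor, was lower on both arrays, and it differed more between the arrays than any other member. Its probe (chromosome 18, 36884969 to 36885028, minus strand, mm9) had 87.7 and 143 in the ESlncRNA channel, against 339 and 392 in the vector channel. The channels did not overlap. The log2 ratios of -1.95 and -1.46 averaged -1.70 ± 0.35 (SD, n = 2 arrays), or 3.26-fold lower (limma, adjusted p = 2.78e-05). With the processed signals the mean was -2.38 and the adjusted p = 0.0505, so that Cd14 no longer passed. Cd14 passed as lower under 7 of the 8 alternatives that gave it a test. Among these, the other filters, the fit without replicate block and the averaging of probes left its ratio at -1.70 by construction. They are thus no separate support for its direction. Ly96, the subunit that holds the lipid, has a probe across an intron (chromosome 1, 16696289 to 16699561, plus strand, mm9). It had 450 and 404 in the ESlncRNA channel, against 746 and 727 in the vector channel, well above background throughout. Ly96 was thus 1.73-fold lower, with log2 ratios of -0.73 and -0.85 (-0.79 ± 0.084, SD, n = 2 arrays, limma adjusted p = 3.49e-05).

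**Figure D1:**
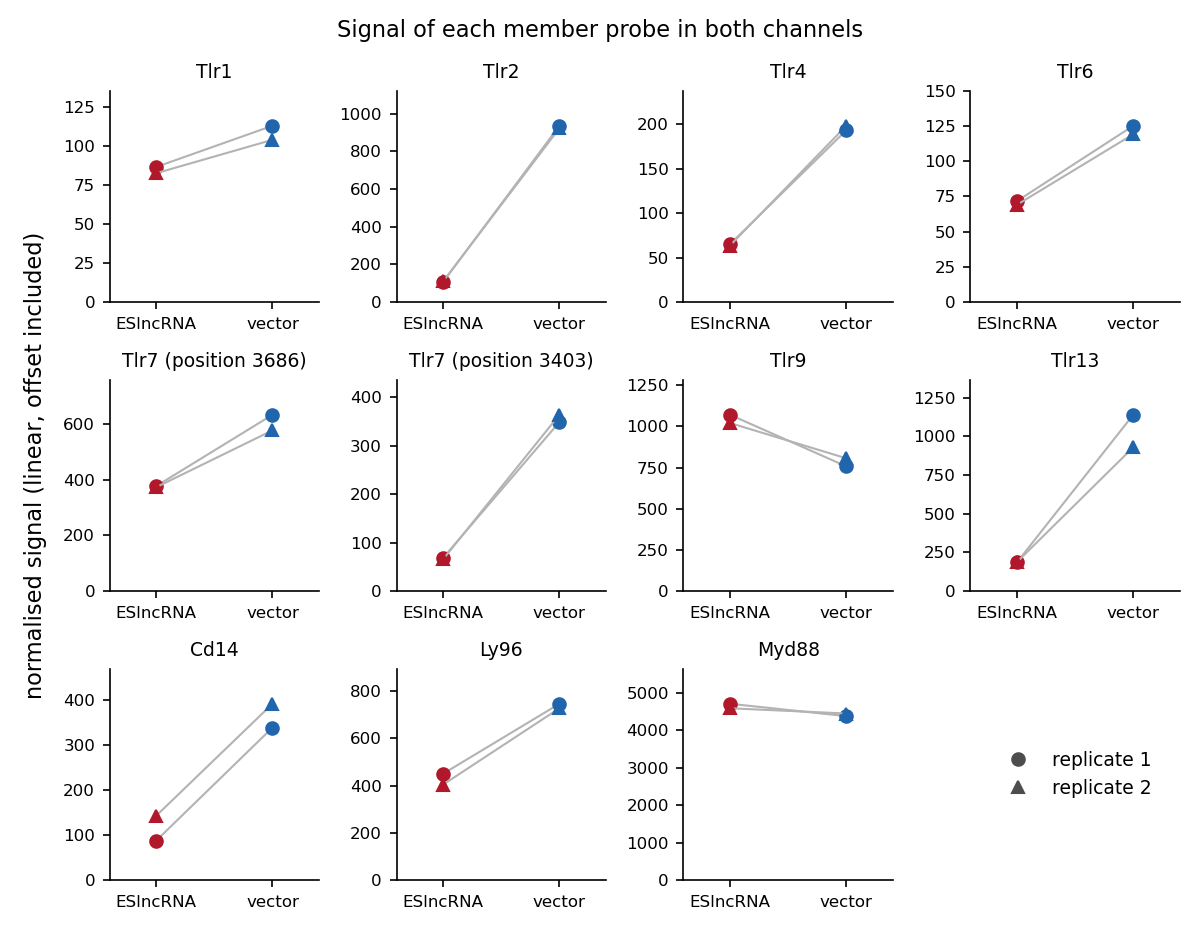
Normalised signal (linear, offset included) of each of the 11 member probes in the ESlncRNA channel (left, red) and the vector channel (right, blue), with a circle for replicate 1, a triangle for replicate 2 and a line joining the channels of 1 array. Each panel has its own axis from 0. Lines climb from ESlncRNA to vector in 9 panels, with the largest ratio for Tlr2 (107 and 110 against 936 and 923), lie nearly flat for Myd88 and run downwards for Tlr9.

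The endosomal receptors did not move together: Tlr13 and Tlr7 were lower in ESlncRNA cells and Tlr9 was higher. Tlr13, which recognises bacterial ribosomal RNA in mice, had 186 and 188 in the ESlncRNA channel, against 1140 and 930 in the vector channel (chromosome X, 103355773 to 103355832, plus strand, mm9). The arrays were alike in the ESlncRNA channel and 1 array was brighter in the vector channel. The log2 ratios were -2.62 and -2.30, and Tlr13 was 5.51-fold lower (-2.46 ± 0.22, SD, n = 2 arrays, limma adjusted p = 1.07e-06).

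Tlr9, which senses DNA rich in CpG, was the only member that rose. It had 1070 and 1020 in the ESlncRNA channel, against 757 and 806 in the vector channel (chromosome 9, 106128979 to 106129038, plus strand, mm9). Both ESlncRNA values lay above both vector values. Its log2 ratios of 0.50 and 0.33 averaged 0.42 ± 0.12 (SD, n = 2 arrays), or 1.33-fold higher (limma, adjusted p = 0.00106). Tlr9 passed as higher under all 8 alternatives that gave it a test, with log2 ratios from 0.40 to 0.86. Among these, the other filters, the fit without replicate block and the averaging of probes left its ratio at 0.42 by construction. They are thus no separate support for its direction. Among all probes kept it stood at percentile 92.8.

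Tlr7, the receptor of single-stranded RNA, was lower by both of its probes, which gave different sizes. The brighter probe, at transcript position 3686 (chromosome X, 163742863 to 163742922, minus strand, mm9), had 377 and 373 in the ESlncRNA channel, against 633 and 577 in the vector channel. Its log2 ratios were -0.75 and -0.63, so that it was 1.61-fold lower (-0.69 ± 0.084, SD, n = 2 arrays, limma adjusted p = 6.78e-05). The dimmer probe, at transcript position 3403 (chromosome X, 163743146 to 163743205, minus strand, mm9), had 68.7 and 65.8 in the ESlncRNA channel, against 349 and 364 in the vector channel. It was not well above background in the ESlncRNA channel on either array and was at least 4.72-fold lower, with log2 ratios of -2.35 and -2.47 (-2.41 ± 0.085, SD, n = 2 arrays).

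The Tlr7 probes start 283 bases apart on the same transcript, and the dimmer minus the brighter gave -1.60 and -1.84 on the log2 scale with an offset of 50. Since the dimmer probe is only bounded in the ESlncRNA channel, the size of the gap depends on the correction. It was -1.89 with median centring, -2.14 in the authors' deposited table, -3 with an offset of 0 and -4.50 with the processed signals. The brighter probe begins with the run TCTCTCTCTCT, printed in capitals above, which 32 of the 55681 probes hold (0.0575%). Whether that run has a part in the gap was not tested. The mean of both probes gave a log2 ratio of -1.55 for Tlr7.

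Myd88, the adaptor that all 7 receptors use, was bright in both channels and nearly level. Its probe (chromosome 9, 119245322 to 119245381, minus strand, mm9) had 4710 and 4590 in the ESlncRNA channel, against 4380 and 4450 in the vector channel. Both ESlncRNA values were above both vector values, by little. The log2 ratios were 0.10 and 0.04 (0.07 ± 0.043, SD, n = 2 arrays), and it did not pass the test (limma, adjusted p = 0.233, 95% interval of the log2 ratio -0.04 to 0.19). At its 10 spots, of which 9 were used on replicate 1 because 1 was marked as an outlier, single log2 ratios ran from -0.01 to 0.19 on replicate 1 and from -0.02 to 0.13 on replicate 2. With median centring of the array in place of loess, Myd88 passed as higher (0.68). The p-values of that setting are far smaller than 2 arrays can bear, so none is given. That setting moves the median of all probes kept to 0.31, and Myd88 was then 0.37 above that median.

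**Figure D2:**
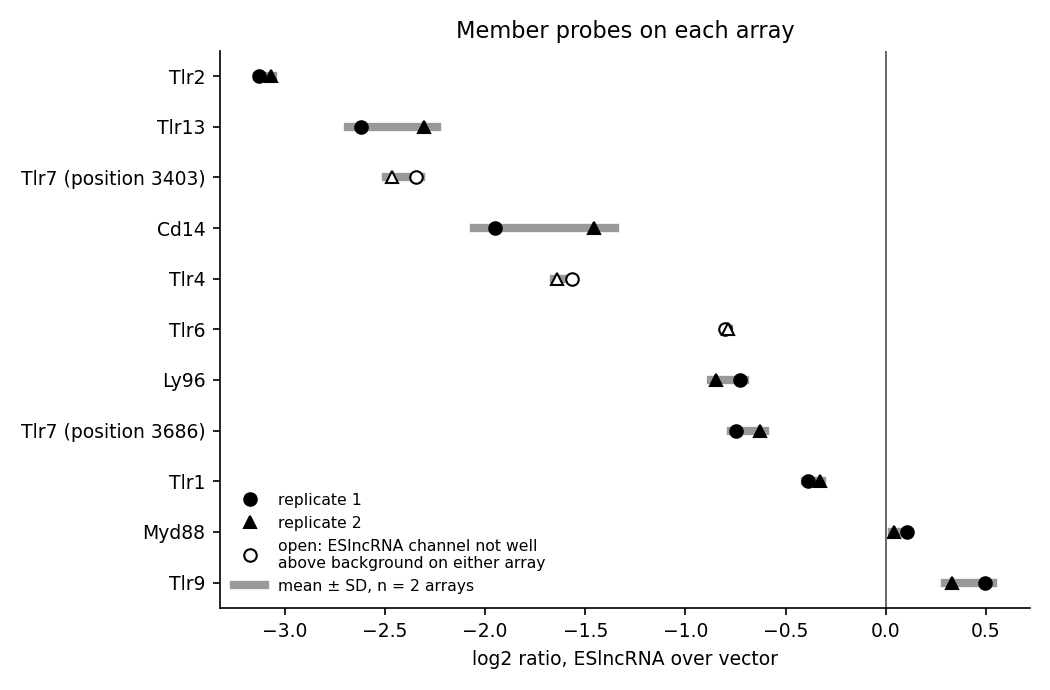
The log2 ratio of ESlncRNA over vector (horizontal axis) of each member probe on replicate 1 (circle) and replicate 2 (triangle), with the mean ± SD of 2 arrays as a grey bar and open symbols where the ESlncRNA channel was not well above background on either array. From Tlr2 (-3.13 and -3.07) to Tlr1 (-0.39 and -0.33), 9 probes lie left of 0, while Myd88 (0.10 and 0.04) and Tlr9 (0.50 and 0.33) lie right of it.

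Among the genes above background in both channels on both arrays, the log2 ratios ran in order from Tlr2 through Tlr13, Cd14, Ly96, Tlr7 by its brighter probe and Myd88 to Tlr9, as the plot of member ratios by array shows. The values of Ly96 (-0.73 and -0.85) overlapped those of the brighter Tlr7 probe (-0.75 and -0.63), so these neighbours did not differ beyond their spread. Other neighbours in this order did not overlap. Tlr4, Tlr6 and Tlr1 have no settled place in it, since Tlr4 and Tlr6 are bounded on both arrays and Tlr1 on replicate 2: with the processed signals Tlr4 (-4.75) was lower than Tlr2 (-3.87). The plot of all probes kept shows how far each member was from the dim end of the array, where ratios are least certain: the Myd88 probe lay at percentile 81.0 of mean intensity, and those of Tlr6 and Tlr1 at percentiles 10.8 and 12.9. These places describe the probes and do not rank the genes by expression.

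**Figure D3:**
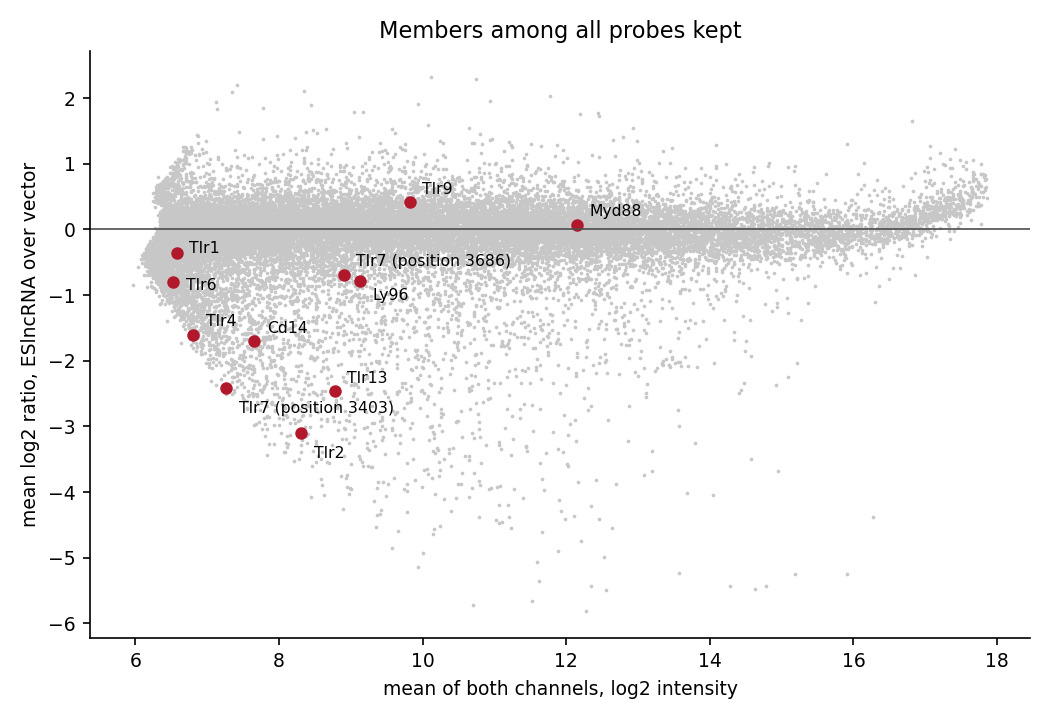
Mean log2 ratio of ESlncRNA over vector against the mean of both channels (log2 intensity) for the 26790 probes kept (grey) and the 11 member probes (red, named). Tlr2, Tlr13, Cd14, Tlr4 and the Tlr7 probe at position 3403 lie in the sparse lower part, and Myd88 and Tlr9 lie in or just above the dense band around 0.

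Markers of myeloid cells moved with the lowered receptors. Counts of markers are read beside all probes kept, of which 35.8% were lower and 25.9% higher. They are given for loess only, and with median centring 4729 of all probes were lower and 16441 higher. Of 15 macrophage and monocyte markers 13 were kept, and these were lower in ESlncRNA cells, with a median log2 ratio of -0.87. On at least 1 array 10 of the 13 passed through the vector channel only, so that their low ratios were favoured by the filter. The 3 above background in both channels were lower, with a median of -2.76. The summed normalised signal of the 13 was 1938 to 1962 in the ESlncRNA channel, against 12210 to 12480 in the vector channel. Such sums, here and for the lists below, are carried by the brightest probes and do not measure amounts of a cell type. In this list the brightest was Csf1r, with a mean log2 level of 13.09 in the vector channel. Csf1r, the growth factor receptor that macrophages need, was 9.90-fold lower (-3.31 ± 0.031, limma adjusted p = 6.48e-08) and Lyz2, lysozyme, 6.76-fold lower (-2.76 ± 0.061, limma adjusted p = 1.22e-07). All 13 neutrophil markers were lower, with a median of -4.38 and a summed signal of 69980 to 83870 in the ESlncRNA channel, against 1181000 to 1316000 in the vector channel. S100a8 and S100a9, the calprotectin subunits, were at -5.43 ± 0.028 and -5.25 ± 0.021 (SD, n = 2 arrays each). The part of these cells in the members' ratios was not tested.

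The dendritic, B lymphoid and mast cell lists held fewer measured markers. Counts in these lists too are read beside the 35.8% lower and 25.9% higher of all probes kept. Of 7 dendritic markers, 5 were kept, of which 4 were lower, among them Bst2 (-0.76) and Itgax (at least 1.39-fold lower), and Zbtb46, named after its value was seen, was higher (0.59). Of the 5, 2 passed through the vector channel only on at least 1 array. The median of the 5 was -0.54 and their summed signal 49260 to 54150 in the ESlncRNA channel, against 62270 to 64730 in the vector channel. That sum rests mostly on Siglech (-0.23), named after its value was seen. The 3 above background in both channels, 2 lower and 1 higher, had a median of -0.23. Of 7 B lymphoid markers, 3 were kept: Cd79b (-3.54) and Il7r (at least 1.56-fold) were lower, and Vpreb1, also named after its value was seen, was higher (0.31). Their summed signal was 602.7 to 652.8 in the ESlncRNA channel, against 2295 to 2456 in the vector channel, and the defining markers Cd79a, Pax5 and Ebf1 did not pass the filter on dim probes. Of the 2 above background in both channels, Cd79b was lower and Vpreb1 higher. Of 6 mast cell and basophil markers, 5 were kept and all 5 were lower, with a median of -1.999, among them Cpa3 (-4.38) and Mcpt8 (-3.06), and 4 of the 5 were above background in both channels. The summed signal of the 5 was 999.4 to 1007 in the ESlncRNA channel, against 10400 to 10710 in the vector channel. Erythroid markers moved the other way. Of 14 erythroid markers 13 were kept, and 11 were higher in ESlncRNA cells, beside 25.9% of all probes kept. Among them were Gfi1b (0.99) and Ermap (0.94). The median of the 13 was 0.84, and Alas2 and Slc4a1 did not pass. Both differed between replicates 1 and 2, with Alas2 at -0.02 and 0.77 and Slc4a1 at -0.45 and 1.48. All 13, markers of the labelled cell type, were well above background in both channels on both arrays, and their summed signal was 372300 to 414400 in the ESlncRNA channel, against 241700 to 275400 in the vector channel.

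Among further genes of Toll-like receptor signalling, the chaperones, transcription factors and target genes above background in both channels, 5, 5 and 3 genes, were all lower in ESlncRNA cells, while neither of the adaptors and 7 of 16 kinases and ubiquitin steps passed the test. Of 57 such genes 45 were kept, and 32 were lower in ESlncRNA cells, 1 was higher and 12 did not pass, beside the 35.8% and 25.9% of all probes kept. By at least 2-fold on both arrays 13 were lower, beside 7.11% of all probes kept. The median of the 45 was -0.45. For 8 of them the filter was passed through the vector channel only on at least 1 array, which favours a low ratio, and of the 37 above background in both channels 24 were lower, 1 was higher and 12 did not pass (median -0.33). With median centring 22 of the 45 were lower and 16 higher, so the balance of this list rests on the normalisation. The 10 members were then 8 lower and 2 higher. Over all probes, 9597 were lower and 6929 higher, against 4729 and 16441 with median centring and 6016 and 9277 with the processed signals.

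Of the other receptors only Tlr12, a mouse receptor of a parasite's profilin, was kept. It was 5.25-fold lower with its dim ESlncRNA signal taken as it stood. It passed the filter through the vector channel only on both arrays, which favours a low ratio, so no p-value is given. Tlr3, Tlr5, Tlr8, Tlr11 and Cd180 were not kept. All 6 co-receptors and chaperones were lower, with a median of -1.53, and the 5 above background in both channels had a median of -2.06. Unc93b1, which carries Tlr7, Tlr9 and Tlr13 to endosomes, was 5.14-fold lower, with log2 ratios of -2.34 and -2.38 (limma, adjusted p = 1.70e-07). Lbp, which brings lipopolysaccharide to Cd14, was at -2.23 ± 0.027, and Ly86, the partner of Cd180, at -2.06 ± 0.085 (SD, n = 2 arrays each). The folding chaperones of the receptors, Hsp90b1 and Cnpy3, were 1.99-fold and 1.84-fold lower.

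The adaptors beside Myd88 did not pass the test. Tirap, which links Tlr2 and Tlr4 to Myd88, was at -0.14 ± 0.040 (limma, adjusted p = 0.05 after rounding), and Ticam1, the adaptor of the alternative route from Tlr3 and Tlr4, at 0.0036 ± 0.0069 (limma, adjusted p = 0.953). Ticam2 and Sarm1 were not kept. Of 16 kinases and ubiquitin steps, 6 were lower, 9 did not pass and Tab3 was higher (0.31 ± 0.040), a gene named after its value was seen. Ikbke, an inducible kinase upstream of interferon genes, was 2.74-fold lower with its dim ESlncRNA signal taken as it stood. It passed the filter through the vector channel only. Tab2, a scaffold of the kinase Map3k7, was at -0.67 ± 0.0020. The median of this group was -0.07.

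All 6 transcription factors kept were lower, from Irf5, which acts downstream of Myd88 and was 5.25-fold lower (-2.39 ± 0.042, limma adjusted p = 1.70e-07), and Nfkb1 (-0.70 ± 0.0063) to smaller changes, with a median of -0.35 (-0.33 for the 5 above background in both channels). Rel was not kept. Of the 7 negative regulators, 6 were lower and 1 did not pass, with a median of -1.04. Irak3, a kinase relative that holds back receptor signalling in macrophages, was 11.6-fold lower (-3.54 ± 0.072, limma adjusted p = 6.48e-08). Nfkbia, the inhibitor that keeps NF-kB in the cytoplasm, was 2.85-fold lower and Sigirr, an inhibitory receptor of the same superfamily, 2.47-fold lower.

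The 7 target cytokines and regulators kept were lower too, with a median of -1.55. On at least 1 array 4 of them passed through the vector channel only, which favours a low ratio, and the 3 above background in both channels had a median of -1.96. Ccl3 and Ccl4, chemokines of activated myeloid cells, were at -2.60 ± 0.075 and -1.80 ± 0.15, Tnf at -1.96 ± 0.099 (SD, n = 2 arrays each), and Il6 was at least 2.55-fold lower. Il12b, Il10, Cxcl2 and Ptgs2 were not kept.

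**Figure D4:**
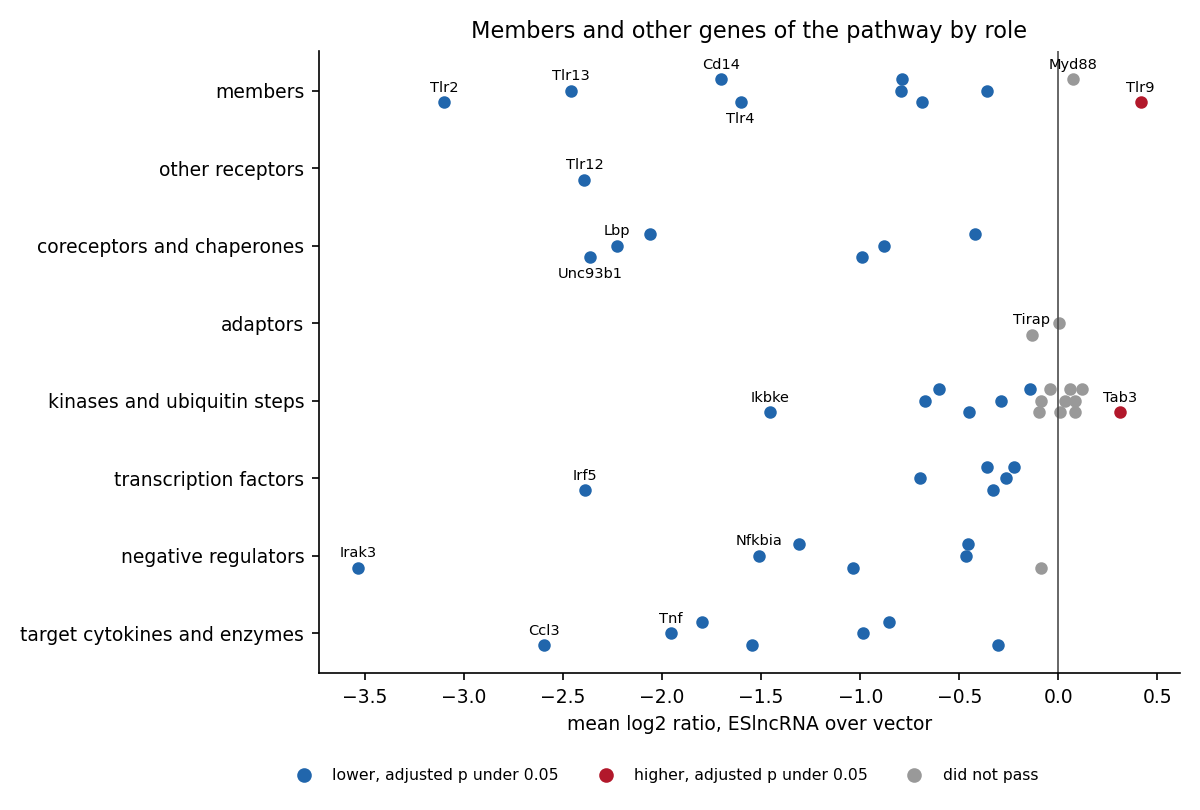
Mean log2 ratio of ESlncRNA over vector (horizontal axis) of the 10 members and of the 45 other pathway genes kept, in rows by role, with blue for lower and red for higher at an adjusted p under 0.05 and grey for genes that did not pass. Blue points fill the rows of chaperones, transcription factors and targets and most of the row of negative regulators. The row of other receptors holds Tlr12 alone, and the row of members also holds Tlr9 in red and Myd88 in grey. Most kinases and both adaptors sit in grey near 0.

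Promoters were compared because most members were lower together while Tlr9 was higher. From the RefSeq table of assembly GRCm38.p6, 8 promoters of 6 member genes were taken. The 250 bases before each start were searched on both strands for 6 motifs. Cd14 was left out of the search, and Tlr4, Tlr7 and Ly96 had no window, so these lowered genes are not covered. The ETS core, found in sites of the myeloid factor PU.1, was searched as GAGGAA. The GATA motif was searched as AGATAA. For AP-1 the letters were TGANTCA, where N is any base. The narrow NF-kB motif was GGGA and TTCC with any pair of bases between them, and the wider one, added after the Tlr2 window was seen, was GGG, any purine, any pair of bases, a pair of pyrimidines and CC. The motif of interferon regulatory factors was a repeat of GAAA with any pair of bases between the copies. The windows of Tlr2, Tlr13 and Tlr9 are given from the 5′ end, with matches in capitals, as strongly lowered genes and the 1 increase among genes with an entry.
Tlr2, chr3:83841609-83841858, minus strand: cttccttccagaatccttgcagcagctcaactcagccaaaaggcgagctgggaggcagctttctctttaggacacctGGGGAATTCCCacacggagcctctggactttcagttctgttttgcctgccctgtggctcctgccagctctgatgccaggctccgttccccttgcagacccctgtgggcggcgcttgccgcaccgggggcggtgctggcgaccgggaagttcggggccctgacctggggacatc
Tlr13, chrX:106143025-106143274, plus strand: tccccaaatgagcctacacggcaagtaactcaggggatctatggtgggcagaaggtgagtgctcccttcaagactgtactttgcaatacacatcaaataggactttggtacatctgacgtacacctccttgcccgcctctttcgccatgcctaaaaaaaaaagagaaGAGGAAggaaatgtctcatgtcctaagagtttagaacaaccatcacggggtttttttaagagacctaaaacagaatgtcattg
Tlr9, chr9:106222348-106222597, plus strand: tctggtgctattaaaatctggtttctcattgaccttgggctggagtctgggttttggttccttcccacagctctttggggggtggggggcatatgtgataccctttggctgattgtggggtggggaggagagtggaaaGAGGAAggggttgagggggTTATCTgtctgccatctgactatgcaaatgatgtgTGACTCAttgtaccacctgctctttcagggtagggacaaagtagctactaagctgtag

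The Tlr9 promoter held the ETS core, the AP-1 motif and, on the other strand, the GATA motif, the last in no other member promoter searched. Tlr13 held the ETS core alone, and the Tlr2 window held only the wider NF-kB motif, as 2 overlapping matches, from which nothing is drawn. Of all 32851 promoters in the table, 23.3% held the ETS core, 1.21% the narrow NF-kB motif, 7.25% the wider one, 6.75% the AP-1 motif, 2.98% the interferon regulatory factor motif and 9.99% the GATA motif. Among the 6 member genes 3 held the ETS core in at least 1 promoter, 0 the narrow NF-kB motif, 1 the wider one, 1 the AP-1 motif, 2 the interferon regulatory factor motif (Tlr6 and Myd88) and 1 the GATA motif. Such counts are per gene and the shares are per promoter, so a gene with several promoters had more windows to match. Of the 4 lowered genes searched (Tlr1, Tlr2, Tlr6 and Tlr13), 2 held the ETS core. These are matches of letters in a window, described for a handful of genes.

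The plot of members by way of processing shows the same direction for every member under each of the alternatives that gave a value. The other filters and the fit without replicate block could not change a ratio, nor could the averaging of probes except for Tlr7. Tlr2 lay between -3.87 and -2.78, Tlr13 between -2.82 and -2.10 and Ly96 between -0.89 and -0.40. The value of Tlr7 ran from -1.55 to -0.32 and that of Cd14 from -2.38 to -1.45. Taken relative to the median of all probes under the same setting, Tlr9 was 0.41 to 0.55 above it and Myd88 0.04 to 0.37 above it.

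**Figure D5:**
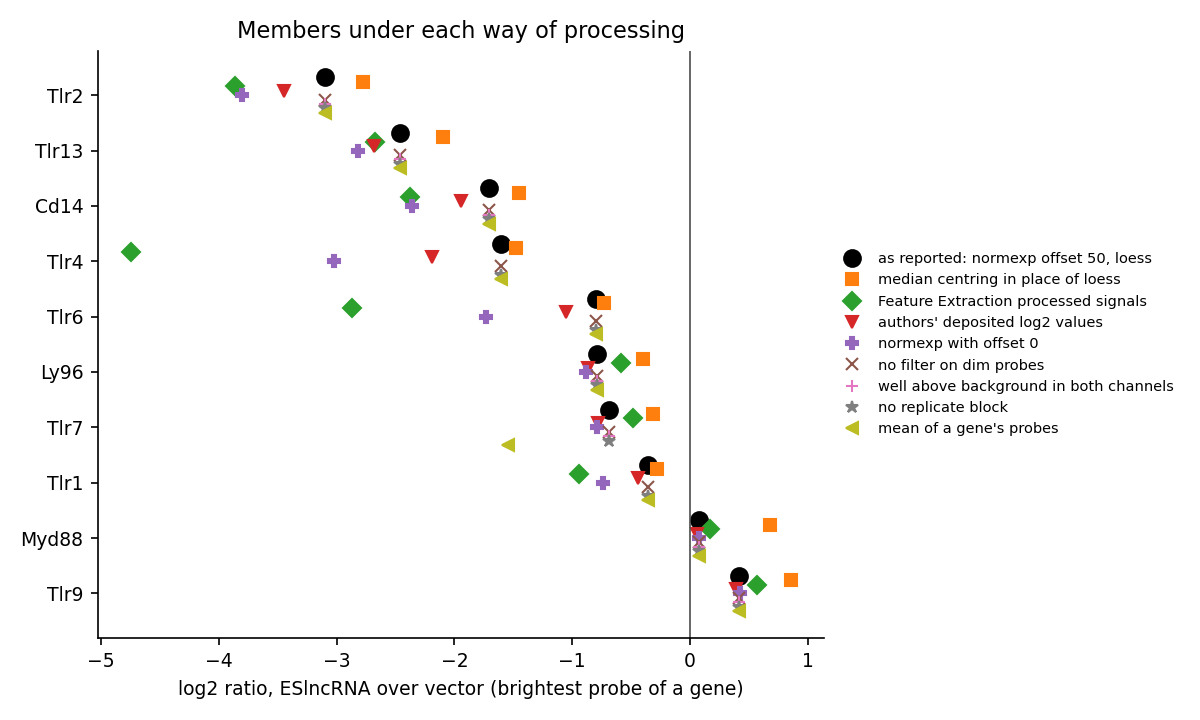
The log2 ratio of ESlncRNA over vector (horizontal axis) of each member gene under each way of processing, with the reported value as a black circle and 1 symbol for each alternative. Tlr4 and Tlr6 spread furthest, to -4.75 and -2.87 with the processed signals, and Myd88 and Tlr9 move furthest right with median centring, to 0.68 and 0.86.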

How the data were processed

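The authors' deposited spot values are intensities, per the file headers from Feature Extraction 10.1.1.1: the mean signal and the median local background of a spot in each channel, and processed intensities, background-subtracted and dye-normalised. Per the file headers, the deposited log10 ratios set Cy5 over Cy3, and they served to check the direction (r = 0.985 and 0.992 with the ratio of processed intensities). The authors also deposited log2 values, for which the submitters' processing notes name limma. Their medians were -0.02 and -0.01. Their direction follows from a correlation of r = 0.99996 on each array with log2 ratios made here by loess without background subtraction. Their scale follows from the median absolute difference from those log2 ratios, 0.00369 on replicate 1 and 0.00314 on replicate 2. Coordinates are those of the files, in mm9.

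Per the labels' protocols, labelled cRNA was made with a QuickAmp kit, from 100 ng of RNA for replicate 2. Both arrays lay on the same slide with the same scan time, which leaves no slide or scan batch to compare. Each held 59305 non-control spots, of which 284 and 308 were marked as outliers and 0 were saturated. The ESlncRNA channel was well above background at 45.6% and 44.4% of these spots, and the vector channel at 52.1% and 49.1%. The number of arrays limits the precision.

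Here the mean signals were corrected with normexp (offset 50) and normalised with loess within each array, giving control and marked spots no weight (limma 3.58.1, R 4.3.3). Spots of a probe were averaged. Levels per channel were scaled between arrays with Aquantile. The 26790 probes with 1 channel or both well above background on each array were fitted with an intercept and eBayes (1 residual and 5.27 prior degrees of freedom), with Benjamini-Hochberg adjustment over all of them. The steps were run on simulated arrays in which few probes changed, so that run does not cover changes as widespread as those seen here. The array pairs the channels, so pairing comes from the design.

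The members, the 57 pathway genes and the 62 marker genes were chosen with earlier results of these data known. Named were all members, in each pathway role the 2 genes with the smallest p and those at least 2-fold changed on both arrays, and in each marker list the 2 genes with the smallest p. Hsp90b1 and Cnpy3 were named beside this rule, after their values were seen. Promoter and motif shares come from RefSeq's GRCm38.p6 table. The wider NF-kB motif and the counts of listed genes above background in both channels were added after the data were seen. Alternatives were median centring, processed signals, the deposited log2 values, an offset of 0, other filters on dim probes, no replicate block, the mean of a gene's probes and each array left out.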

Additional observations from a re-analysis of the deposited data

How the results depend on the processing

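No member changed direction under any alternative, though other filters, the fit without replicate block and, except for Tlr7, averaging of probes leave a ratio as it was. Of the called members that kept a value, Cd14 alone lost its call, with the processed signals (-2.38, limma adjusted p = 0.0505), where 7 members were lower. Myd88 gained a call with median centring (0.68). Asking for both channels well above background left 5 members lower, because Tlr1, Tlr4 and Tlr6 were then not measured. The members' median log2 ratio was -0.56 with median centring, -1.66 with the processed signals, -0.96 with the authors' deposited values, -1.31 with an offset of 0 and -1.17 where the probes of a gene were averaged; leaving out 1 array gave -0.82 to -0.78. With median centring 4729 probes were lower and 16441 higher (77.66% of calls, against 41.93% as reported), 2 members were higher, and 16 pathway genes were higher. The processed signals gave 6016 lower probes, 60.66% of calls higher and 4 higher pathway genes, and averaging the probes of a gene gave 2. The median of all probes moved to 0.31 under median centring and to 0.13 with processed signals. The cause of these shifts was not tested. With no replicate block, the channels fitted as separate samples, 4481 probes were higher and 7411 lower, and 8 members were lower and 1 higher, so the pairing changed no member's call. Leaving out an array leaves no residual degrees of freedom, so those values have no test. Signal over background limits Tlr1, Tlr4, Tlr6 and the dimmer Tlr7 probe, whose sizes depend on the correction.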

Other observations

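The array holds 3 further probes whose files' descriptions tie them to the family but not by gene name: 1 for a transcript described as similar to Tlr7, and 1 each for alternative transcripts of Tlr4 and Tlr7. None was well above background in any channel on either array, so none was tested. Their mean signals were 42.0 to 54.5 in the ESlncRNA channel, against 22.7 to 31.1 in the vector channel, close to the local background of the same spots.

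Cd14 had the largest spread between arrays among the members, and its spot on replicate 2 had a local background of 66.0 in the ESlncRNA channel, against 49.5 on replicate 1. The mean signal of that spot was 184 on replicate 2 and 85.2 on replicate 1 in the ESlncRNA channel. The part of the background in the difference was not tested.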
